A study of Homo sapiens with 6 samples.

Results

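The genes described here build the machinery that carries proteins into mitochondria, folds them there and breaks them down. They are every gene of the deposited table whose symbol begins with TIMM or TOMM and a digit, plus 13 named chaperone, processing and protease genes, 38 of the 16407 genes listed. Of these, 37 passed the filter on low counts and were tested among 12548 genes. TOMM20L was not tested, with a count of 0 in 5 libraries and 1 in the other.

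The cells were C666-1, an Epstein-Barr virus carrying line from a human nasopharyngeal carcinoma. All cells received minimal essential medium made without non-essential amino acids, with 10% dialyzed fetal bovine serum, an antibiotic and 4.5 g/L glucose. Complete medium also held 0.4 mM serine and 0.4 mM glycine, while the deprived medium held neither, and RNA was taken after 24 h. There were 3 libraries of each medium, and the labels number them 1 to 3. They do not say whether these came from separate cultures, so p-values measure the spread between libraries, which may be technical. It is 1 line, and in bulk RNA fewer cells of a kind and less RNA per cell cannot be told apart.

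The libraries held 16612189 to 17030352 estimated counts. Epithelial keratins were abundant, with KRT8 at 612 TPM and KRT18 at 1196 TPM in complete medium, while the pan-leukocyte gene PTPRC was between 0 and 0.05 TPM. The epithelial genes CDH1, KRT5 and KRT14 were at most 0.34 TPM in any library, and EPCAM was at 10.5 TPM. CD68, a lysosomal gene listed here as a leukocyte marker, was at 71.7 TPM in complete and 51.4 TPM in deprived medium. The libraries numbered 1 stood apart in both media. Chi-square per gene between library 1 and the other libraries of its medium ran from 9.01 to 19.1, while libraries 2 and 3 differed by 4.09 in complete medium and by 2.73 in the deprived medium.

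Nearly all mitochondrial proteins are encoded in the nucleus and made in the cytosol. Precursors cross the outer membrane through the TOM complex and are then sorted. Small TIM chaperones of the intermembrane space hand hydrophobic carriers to the TIM22 complex, while TIM23 and its HSP70 motor pull presequence-bearing precursors into the matrix. There a peptidase removes the presequence, chaperonins fold the product, and ATP-dependent proteases remove what is damaged.

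Without serine and glycine, 5 members fell and 0 rose. They were TOMM40 and TOMM22 of the outer membrane, TIMM13 and TIMM9 of the intermembrane space, and TIMM44 of the import motor. The declines were modest, from 18.4 to 30.5% of the level in complete medium. The chaperonin pair HSPD1 and HSPE1 stood higher in every deprived library than in any complete library, but neither passed the test. The same separation was seen for 16.1% of all genes tested. Most of the remaining members lay close to their level in complete medium.

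A gene was called where edgeR's quasi-likelihood test gave a Benjamini-Hochberg adjusted p under 0.05 over all genes tested. By that rule 5 of 37 members were lower, against 4.22% of all genes, and 0 were higher, against 2.73%. At an unadjusted p under 0.05, 13 members were lower, against 14.4% of all genes, and 1 was higher, against 12.9%. DESeq2 called 10 members lower and 0 higher, against 6.51% and 4.35% of the 11298 genes to which it gave an adjusted p. By limma voom 5 were lower and 0 higher, against 4.14% and 2.7%. The libraries of the media did not overlap for 13 members that were lower, against 16.4% of all genes, and for 3 that were higher, against 16.1%. The median log2 change was -0.12 over the members and -0.0007 over all genes tested, and 27 members had a negative and 10 a positive change.

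The number of members called depended on single libraries. When complete library 2, complete library 3, deprived library 2 or deprived library 3 was left out, 0 members and 0 of all genes were called by edgeR. In these 4 fits 13, 11, 12 and 13 members had an unadjusted p under 0.05, against 17.1, 19.7, 22.5 and 20.7% of all genes. The adjusted p then ran from 0.0733 to 0.113 for TIMM13, 0.0776 to 0.127 for TOMM40, 0.0776 to 0.155 for TOMM22 and TIMM9, and 0.0970 to 0.194 for TIMM44. Without replicate 1 of complete medium 11 members were lower, against 6.23% of all genes, and without replicate 1 of the deprived medium also 11, against 7.74%. Without both libraries numbered 1, 19 were lower, against 15.5%, and 3 higher, against 13.5%.

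With the shared library number as a replicate block, 12 members were lower, against 13.2% of all genes, and 2 were higher, against 11.1%. The block kept the 5 called members and added AFG3L2, PMPCA, TIMM8B, TRAP1, HSPA9, CLPX and LONP1 as lower, and TIMM21 and HSPD1 as higher. Unless another test or the block is named, each adjusted p below is from edgeR's quasi-likelihood test over all genes without the block. Counts of called genes in a role or list below are to be read against 4.22% lower and 2.73% higher over all genes.

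**Figure D1:**
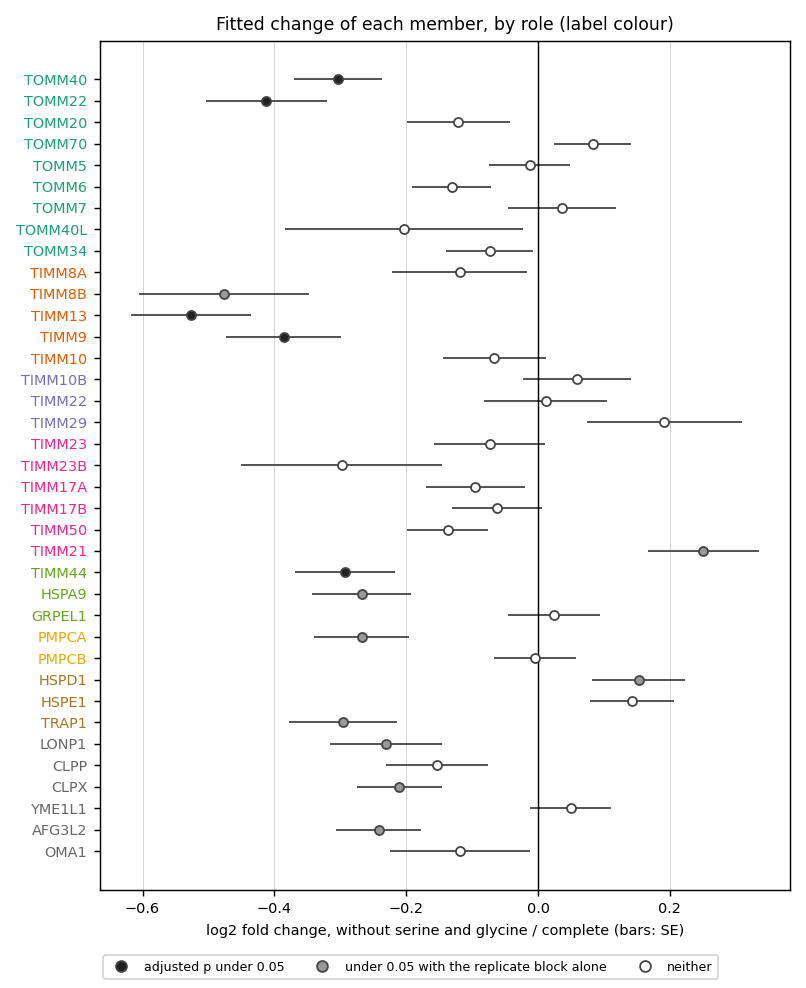
Fitted log2 fold change of each of the 37 tested members (deprived over complete medium) with its SE, ordered by role, with label colours marking the role. Filled black points are the 5 members called lower, at -0.53 to -0.29, and grey points are the 9 called only with the replicate block.

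**Figure D2:**
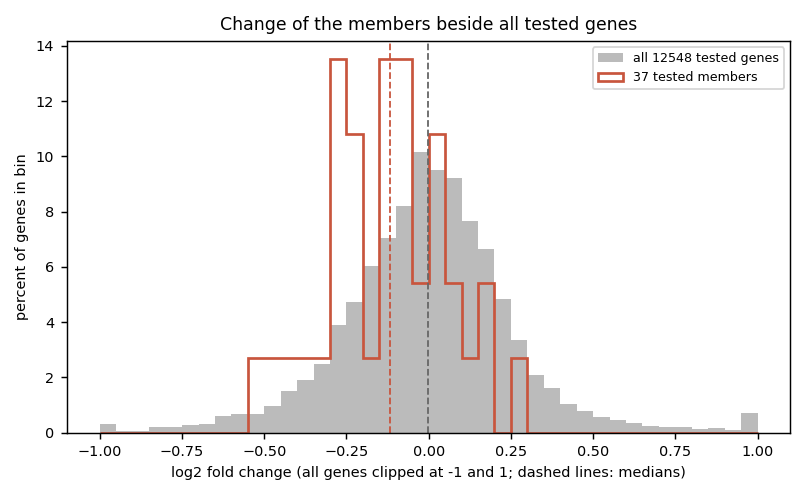
Percent of genes in each bin of log2 fold change, for the 37 tested members (red outline) and for all 12548 tested genes (grey), with dashed lines at the medians. The members' median lies at -0.12 and that of all genes near 0, and the distributions overlap over most of their range.

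Members differed widely in level. TPM, which divides by gene length and so allows genes to be compared, was highest for TOMM7, at 1192 TPM over the 6 libraries and rank 108 of the table. The chaperones HSPD1, HSPE1 and HSPA9 followed at 875, 660 and 638 TPM. Among tested members the lowest were TOMM40L at 16.9 TPM and TIMM23B at 11.2 TPM. The 5 members called lower were of middle level, from 51.1 TPM for TOMM22 to 121 TPM for TOMM40. Summed TPM of all members was 7083 ± 48.2 (SD, n = 3) in complete and 7095 ± 82.5 in deprived medium, so the total overlapped between media. Within it, the import motor stood at 835 ± 30.6 and 728 ± 15.2 TPM, and the matrix chaperones at 1766 ± 28.6 and 1937 ± 50.8 TPM. The small TIM genes summed to 431 ± 18.9 and 377 ± 21.4 TPM and the proteases to 535 ± 20.7 and 497 ± 12.1 TPM. The outer membrane genes, of which TOMM40 and TOMM22 fell, summed to 2576 ± 8.02 and 2634 ± 17.5 TPM. The libraries of the media did not overlap in any of these 5 sums, and no sum was tested. The median change over all tested genes on log2(TPM + 1) was 0.0422, so a small rise in TPM is not particular to these genes. In the count fit, 7 of the 9 tested outer membrane genes had a negative change.

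**Figure D3:**
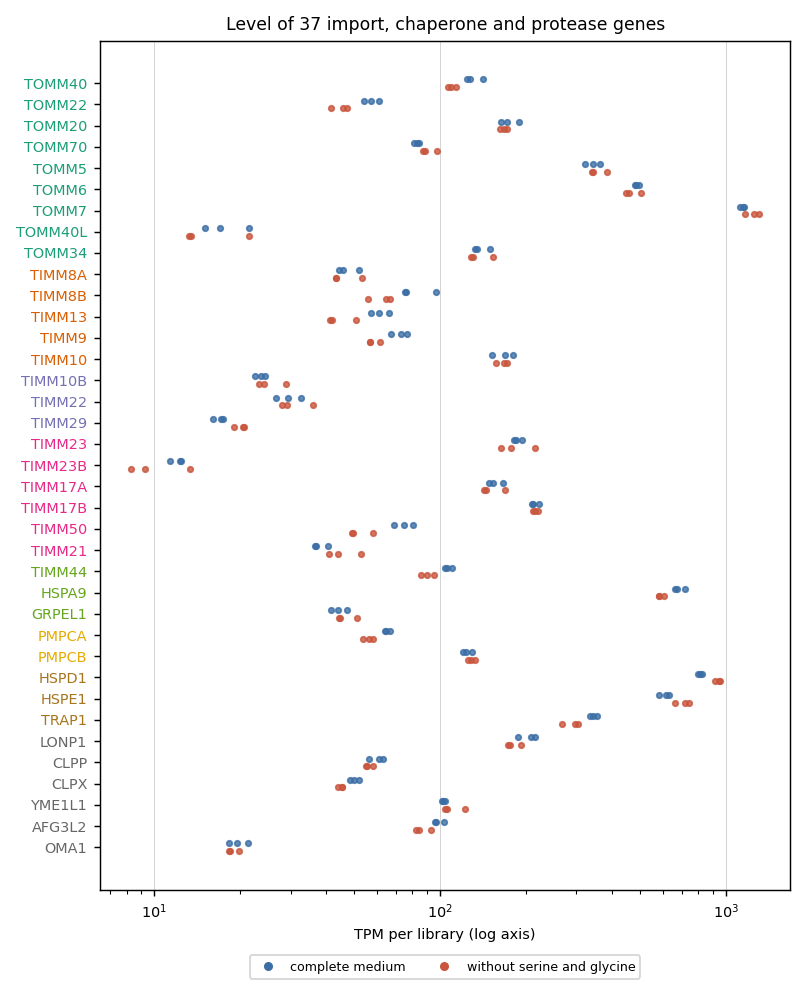
TPM of the 37 tested members in each library (log axis), 3 points for complete medium (blue) and 3 for the deprived medium (red), with label colours marking the role. Levels span from about 11.2 TPM for TIMM23B to 1192 TPM for TOMM7, far more than the shift between media of any member.

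At the outer membrane, 2 of 9 tested genes fell and 0 rose, with a median log2 change of -0.12. TOMM40 forms the pore through which nearly all precursors pass. It stood at 97.8, 91.5 and 88.7 CPM in libraries 1 to 3 of complete medium and at 72.5, 79.4 and 73.3 CPM in those of the deprived medium, so every deprived library lay below every complete one. TOMM40 (NCBI Gene 10452, chromosome 19, 44891254 to 44903689 on GRCh38.p14) fell by 0.30 on the log2 scale (SE 0.067, adjusted p = 0.0317). TOMM22 is the central receptor that holds the complex together and passes precursors to the pore. Its values were 48.6, 57.7 and 53.1 CPM in complete medium and 35.6, 42.8 and 41.4 CPM in the deprived medium, again with no overlap. TOMM22 (NCBI Gene 56993, chromosome 22, 38681957 to 38685421) fell by 0.41 (SE 0.092, adjusted p = 0.0328).

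The peripheral receptors were not called. TOMM20, which binds presequences, was at 252, 306 and 272 CPM in complete medium and 245, 266 and 252 CPM in the deprived medium, a log2 change of -0.12 (adjusted p = 0.342). TOMM70, which docks cytosolic chaperones carrying hydrophobic precursors, was at 162, 174 and 165 CPM and then 182, 172 and 176 CPM, a log2 change of 0.08 (adjusted p = 0.385). The libraries of the media overlapped for both receptors. The small subunits that stabilise the complex were not called either: TOMM5 had a log2 change of -0.01, TOMM6 one of -0.13 and TOMM7 one of 0.04. TOMM6 alone of these had no overlap between media, all deprived libraries being lower (adjusted p = 0.186). All 100-base words of TOMM6 are also found in transcripts of another annotated gene, and TOMM5 shares 52.7% of its 100-base words with other genes, so their counts are uncertain. TOMM40L, a paralog of the pore gene, and TOMM34, a cytosolic co-chaperone, had log2 changes of -0.20 and -0.07 with overlapping libraries.

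The small TIM genes had the lowest median of the 8 roles, at -0.39, and all 5 had a negative change, of which 2 passed the test. Their products form hexamers that shield hydrophobic precursors in the intermembrane space, TIMM9 with TIMM10 and TIMM8A or TIMM8B with TIMM13. TIMM13 was at 43.4, 49.8 and 42.2 CPM in complete medium and at 34.3, 29.6 and 30.1 CPM in the deprived medium. The groups did not overlap, and the fall of 0.53 on the log2 scale (SE 0.091, adjusted p = 0.0220) was the largest among the 37 members. TIMM9 was at 32.9, 37.4 and 37.8 CPM and then at 25.7, 29.6 and 27.4 CPM. It too showed no overlap and fell by 0.39 (SE 0.088, adjusted p = 0.0337). TIMM13 (NCBI Gene 26517) lies on chromosome 19 at 2425625 to 2427586 and TIMM9 (NCBI Gene 26520) on chromosome 14 at 58408494 to 58427531.

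TIMM8B was at 19.7, 26.3 and 20.0 CPM in complete medium and at 15.7, 17.4 and 14.4 CPM without serine and glycine. Its libraries did not overlap, library 2 of complete medium was the highest, and its log2 change of -0.48 missed the threshold (SE 0.129, adjusted p = 0.0518, or 0.00540 under the replicate block). TIMM10, the partner of TIMM9, and TIMM8A, which like TIMM8B partners TIMM13, had log2 changes of -0.07 and -0.12 (adjusted p = 0.616 and 0.481), with overlapping libraries. The log2 ratio of TIMM9 to TIMM10 was 0.01 ± 0.20 (SD, n = 3) in complete and -0.31 ± 0.094 in deprived medium. That of TIMM13 to TIMM8A was 0.82 ± 0.19 and 0.42 ± 0.029. Neither ratio overlapped between media, and since both were chosen after the gene values were seen they are given with no test. TIMM8B, the other partner of TIMM13, had a log2 change of -0.48, close to the -0.53 of TIMM13. The ratio of TIMM13 to TIMM8B was not computed, so the ratio to TIMM8A does not stand for both partners.

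Neighbouring genes limit these values, because the labels do not say whether counting used strand. Exons of KIAA0586, on the opposite strand, cover 14.9% of the exonic bases of TIMM9, and KIAA0586 itself was lower without serine and glycine, from 18.5 ± 2.64 to 13.05 ± 1.05 CPM (adjusted p = 0.0421). TIMM13 overlaps TMPRSS9 on the opposite strand over 15.9% of its exonic bases. TMPRSS9 was at 0.84 CPM in complete and 0.77 CPM in deprived medium. TIMM13 also shares 8.10% of its 100-base words with LMNB2, whose log2 change was 0.02 (adjusted p = 0.864). NKAPD1, on the opposite strand, covers 30.1% of TIMM8B and had a log2 change of -0.01 (adjusted p = 0.935). The part of these neighbours in the results was not tested.

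**Figure D4:**
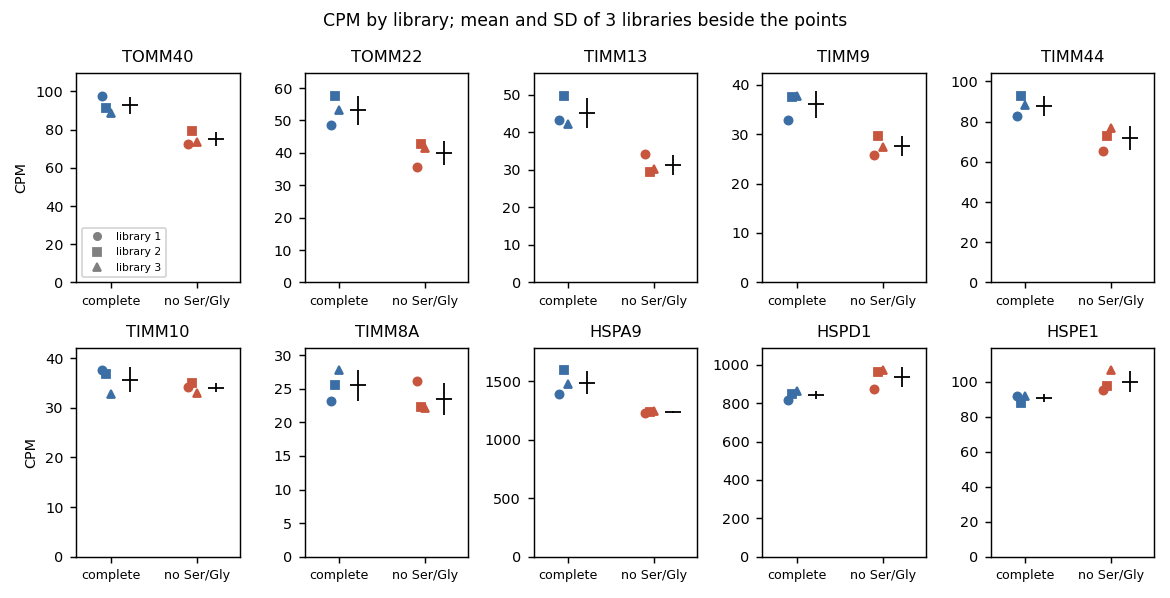
CPM in each library for 10 members, with the marker shape giving the library number and the black cross the mean and SD of 3 libraries. TOMM40, TOMM22, TIMM13, TIMM9, TIMM44 and HSPA9 are lower in every deprived library, HSPD1 and HSPE1 are higher in every one, and TIMM10 and TIMM8A overlap.

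Promoters of TIMM9, TIMM13 and TIMM10 are shown because TIMM9 and TIMM13 fell while TIMM10, the hexamer partner of TIMM9, was not called. The difference in change between TIMM9 and TIMM10 was not tested. RefSeq windows of GRCh38.p14, from 250 bases before to 50 after the annotated start, were matched for 33 of 38 members and searched on both strands. The NRF1 letters GCGCATGC were found in 3 of the 33 windows (9.09%, against 5.62% of 10294 windows of tested genes). These were TIMM9, and also TIMM10B and TOMM7, which were not called and had log2 changes of 0.06 and 0.04. The ETS letters CCGGAAG, bound by GABPA, were found in 13 (39.4%, against 19.6%). The 150 bases before each start are printed 5′ to 3′ on the strand of the gene, with the NRF1 letters in capitals for TIMM9 and the ETS letters in capitals for TIMM13 and TIMM10, in either orientation. TIMM9 is at chr14:58427532-58427681, TIMM13 at chr19:2427587-2427736 and TIMM10 at chr11:57530755-57530904, all on the minus strand.
TIMM9: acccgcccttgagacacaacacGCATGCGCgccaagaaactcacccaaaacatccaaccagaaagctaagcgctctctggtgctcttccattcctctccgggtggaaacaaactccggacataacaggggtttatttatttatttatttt
TIMM13: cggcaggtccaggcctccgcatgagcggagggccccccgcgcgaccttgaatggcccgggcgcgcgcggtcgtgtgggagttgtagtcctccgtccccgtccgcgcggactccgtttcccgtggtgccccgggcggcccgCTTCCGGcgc
TIMM10: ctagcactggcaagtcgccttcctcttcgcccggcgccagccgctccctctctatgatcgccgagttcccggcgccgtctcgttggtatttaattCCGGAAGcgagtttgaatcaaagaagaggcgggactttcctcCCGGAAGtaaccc
TIMM9 holds the NRF1 letters and TIMM10 holds the ETS letters in 2 places, while TIMM13 holds them once, on the other strand. The letters TGATGNAA, an element read by ATF4 with C/EBP, were found in 2 of 33 members (TIMM22 and PMPCB, 6.06% against 1.62%) and in 0 of the 5 that were called lower. The letters CCAAT, those of YY1 (AAGATGG) and those of CHOP with C/EBP (TGCAAT) were also searched, and were found in 10, 4 and 3 of the 33 windows (30.3, 12.1 and 9.09%, against 36.6, 7.52 and 4.98% of windows of tested genes). A match is a description of letters and says nothing of binding.

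None of the 3 TIM22 genes was called, and all 3 had a positive log2 change. TIMM22, the channel that inserts carriers into the inner membrane, was at 48.3, 45.9 and 41.2 CPM in complete medium and at 50.8, 41.8 and 43.8 CPM in the deprived medium. The libraries overlapped, with a log2 change of 0.01 (SE 0.093, adjusted p = 0.952). TIMM10B, the membrane-bound small TIM of this complex, and TIMM29, a subunit that joins it to the TOM complex, had log2 changes of 0.06 and 0.19 with overlapping libraries.

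Of 6 tested TIM23 genes, 0 were called without the block. TIMM23, the presequence channel, was at 85.0, 94.9 and 89.1 CPM in complete medium and at 95.0, 83.8 and 76.8 CPM in the deprived medium (log2 change -0.07, adjusted p = 0.608). TIMM17A, a core subunit whose protein is degraded by YME1L1 under stress, was at 104, 123 and 112 CPM and then at 112, 102 and 102 CPM (log2 change -0.10, adjusted p = 0.443). Both genes overlapped between media. TIMM17B, which takes the place of TIMM17A in part of the complexes, had a log2 change of -0.06, and TIMM23B, a near copy of TIMM23 sharing 6.78% of its 100-base words with other genes, one of -0.30 (adjusted p = 0.236).

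TIMM21, which links TIM23 to the outer membrane and to respiratory chain assembly, had the highest log2 change of the 37 members, at 0.25. It was at 29.4, 27.7 and 26.7 CPM in complete medium and at 35.5, 30.5 and 33.6 CPM in the deprived medium. The libraries did not overlap, and the adjusted p was 0.0936 (SE 0.084) without and 0.0275 with the replicate block.

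TIMM50, the receptor that takes presequences from the TOM complex, gave unlike values on different scales. It was at 85.1, 83.7 and 91.3 CPM in complete medium and at 77.4, 80.7 and 78.4 CPM in the deprived medium, with no overlap and a log2 change of -0.14 (SE 0.062, adjusted p = 0.182). Per length, it stood at 74.6 ± 5.92 TPM and 52.3 ± 5.03 TPM (n = 3), and limma on log2(FPKM + 1) gave a change of -0.52 (adjusted p = 0.0431). The count fit thus did not call a gene that the FPKM fit called lower.

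In the import motor, 1 of 3 genes fell. TIMM44, which anchors the motor to the channel, was at 83.0, 92.9 and 88.1 CPM in complete medium and at 65.5, 73.0 and 76.9 CPM in the deprived medium. No library overlapped, and TIMM44 (NCBI Gene 10469, chromosome 19, 7926718 to 7943666) fell by 0.29 (SE 0.076, adjusted p = 0.0477). HSPA9, the matrix HSP70 whose ATP cycle drives the precursor inward, was at 1394, 1597 and 1478 CPM and then at 1226, 1241 and 1245 CPM. The deprived libraries were close to each other and all lay below every complete library. The log2 change of HSPA9 was -0.27 (SE 0.075, adjusted p = 0.0577, or 0.00676 under the replicate block). GRPEL1, its nucleotide exchange factor, had a log2 change of 0.02 with overlapping libraries.

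The subunits of the processing peptidase, which cuts off presequences, had unlike values. PMPCA, the substrate-binding alpha subunit, was at 62.4, 64.4 and 62.1 CPM in complete medium and at 48.0, 55.4 and 53.6 CPM in the deprived medium, with no overlap (log2 change -0.27, SE 0.072, adjusted p = 0.0515, or 0.0115 under the replicate block). PMPCB, the catalytic beta subunit, was at 120, 134 and 121 CPM and then at 122, 127 and 124 CPM, a log2 change of -0.00 (adjusted p = 0.972). The log2 ratio of PMPCA to PMPCB was -0.99 ± 0.059 (n = 3) in complete and -1.26 ± 0.085 in deprived medium. Its libraries did not overlap, and the exact two-sided permutation test gave p = 0.1, the smallest that 3 against 3 libraries allow, or 0.4 adjusted over 8 gene pairs.

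Among the other 7 pairs of paralogs or partners the adjusted p of the exact permutation test was 0.4 or more. The ratio of TIMM23 to TIMM23B was higher in every deprived library, by 0.24 on the log2 scale (p = 0.1 by the exact test). HSPD1 to HSPE1 differed by 0.01, CLPX to CLPP by -0.06, TIMM17A to TIMM17B by -0.03, TOMM40 to TOMM40L by -0.08, GRPEL1 to GRPEL2 by -0.14 and TIMM8A to TIMM8B by 0.35, all with overlapping libraries.

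The matrix chaperones did not move as a group. HSPD1, which forms the folding barrel of the chaperonin, was at 818, 848 and 861 CPM in complete medium and at 875, 961 and 973 CPM in the deprived medium. HSPE1, the lid of that barrel, was at 91.8, 87.8 and 91.8 CPM and then at 95.4, 97.4 and 107 CPM. Every deprived library was above every complete one for both genes, by log2 changes of 0.15 and 0.14 (adjusted p = 0.196 and 0.184, or 0.0422 and 0.0773 under the replicate block). TRAP1, the mitochondrial relative of HSP90, went the other way, at 331, 371 and 352 CPM and then at 254, 306 and 299 CPM. It too had no overlap, with a log2 change of -0.30 (SE 0.082, adjusted p = 0.0554, or 0.00338 under the block). Exons of DNASE1, on the opposite strand, cover 29.3% of the exonic bases of TRAP1. DNASE1 was at 21.0 CPM in complete and 24.6 CPM in deprived medium, a log2 change of 0.23 (adjusted p = 0.167).

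HSPD1 and HSPE1 are transcribed away from each other, from starts 105 bases apart on chromosome 2. The sequence between their starts is shown because 1 short region lies before both genes and the pair had nearly equal changes. It is chr2:197500275-197500378 of GRCh38.p14 in RefSeq, on the plus strand, which is the strand of HSPE1, with the E-box CACGTG, which reads the same on both strands, in capitals.
HSPD1-HSPE1 between starts: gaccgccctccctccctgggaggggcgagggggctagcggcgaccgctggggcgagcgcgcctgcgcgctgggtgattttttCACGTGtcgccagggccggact
Exons of the pair overlap on opposite strands over 14.2% of the exonic bases of HSPE1. Whether counting used strand is not stated, so the values of the pair may not be fully separate. HSPE1 also shares 12.9% of its 100-base words with other genes, the largest share with HSPE1-MOB4 (8.36%). The E-box letters were found in 7 of 33 member windows (21.2%, against 10.3% of windows of tested genes) and in 0 of the 5 members called lower. The 7 were HSPD1, HSPE1, HSPA9, LONP1, TIMM10, TIMM8A and TOMM20. Of the 11 windows of members lower under the replicate block 2 held the letters, those of HSPA9 and LONP1. The windows of HSPD1 and HSPE1 are counted separately among the 7, though both hold the same printed site. The letters GAANNTTC, searched as a heat shock element, were found in 0 member windows, against 4.70%, which says only that these letters are not in these windows.

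Of 6 proteases, 0 were called without the block and 3 were lower with it, against 13.2% of all genes. LONP1, the main matrix protease, was at 268, 315 and 318 CPM in complete medium and at 236, 255 and 277 CPM in the deprived medium. The lowest complete and highest deprived libraries overlapped (log2 change -0.23, SE 0.085, adjusted p = 0.116, or 0.00828 under the replicate block). CLPX, the unfoldase that feeds CLPP, was at 106, 120 and 113 CPM and then at 95.4, 99.8 and 97.6 CPM, with no overlap (log2 change -0.21, adjusted p = 0.0730, or 0.0155 under the block). CLPP, the peptidase chamber, was at 61.5, 70.6 and 71.6 CPM and then at 57.9, 60.8 and 64.5 CPM, with overlap (log2 change -0.15, adjusted p = 0.233).

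At the inner membrane, AFG3L2, a subunit of the protease that faces the matrix, was at 141, 160 and 148 CPM in complete medium and at 131, 123 and 126 CPM in the deprived medium. These did not overlap (log2 change -0.24, SE 0.064, adjusted p = 0.0510, or 0.0155 under the block). Exons of TUBB6, on the opposite strand, cover 12.6% of AFG3L2, and TUBB6 had a log2 change of -0.21 (adjusted p = 0.107), in the direction of AFG3L2. Its part in the value of AFG3L2 was not tested. YME1L1, the protease that faces the intermembrane space, was at 209, 218 and 211 CPM and then at 234, 213 and 212 CPM (log2 change 0.05, adjusted p = 0.641). OMA1, a stress-activated protease that cleaves OPA1, was at 14.8, 16.6 and 17.8 CPM and then at 14.2, 16.2 and 15.01 CPM (log2 change -0.12, adjusted p = 0.505). Neither YME1L1 nor OMA1 was separated by medium.

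**Figure D5:**
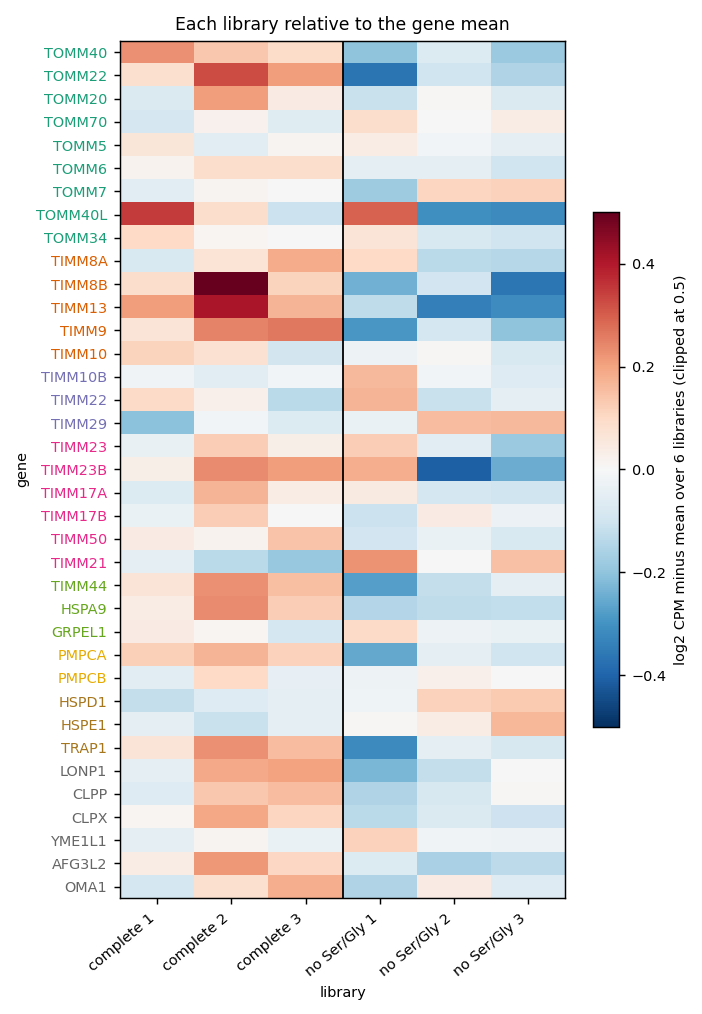
Log2 CPM of each tested member in each library minus its mean over the 6 libraries, clipped at 0.5, with complete medium left of the line and the deprived medium right of it. The median deviation over members was 0.02, 0.10 and 0.04 in complete libraries 1 to 3 and -0.05, -0.05 and -0.08 in deprived libraries 1 to 3.

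Complete library 2 held the highest values for many of the members that were lower without serine and glycine, HSPA9, TRAP1, TIMM8B and TIMM13 among them. Deprived library 1 held the lowest values for TOMM22, TIMM9, TIMM44, PMPCA, TRAP1 and LONP1.

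Other genes of the same pathways gave a mixed picture. Of 16 tested genes of import not in the member list, 2 fell and 0 rose, with a median log2 change of -0.05. PAM16, a J-like subunit that regulates the motor, was at 20.1, 22.7 and 21.4 CPM in complete and at 14.7, 16.7 and 15.7 CPM in deprived medium, and fell by 0.45 (adjusted p = 0.0289). SAMM50, the core of the machinery that inserts barrel proteins into the outer membrane, was at 39.3, 47.1 and 41.1 CPM and then at 31.7, 34.3 and 34.1 CPM, and fell by 0.35 (adjusted p = 0.0415). Neither gene overlapped between media. The uncalled genes with the smallest p were MTX3 (log2 change 0.23), OXA1L (-0.22) and MTCH2 (-0.16), with adjusted p of 0.0895, 0.106 and 0.121, or 0.0181, 0.0286 and 0.0471 under the block. With the block 4 were lower and 1 higher, against 13.2 and 11.1% of all genes.

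Of 18 tested genes of other mitochondrial proteases, scaffolds and folding factors, 3 fell and 0 rose, with a median of -0.04. With the block 6 were lower, against 13.2% of all genes. PITRM1, which degrades cleaved presequences, fell from 72.4 ± 2.29 to 54.5 ± 5.26 CPM (n = 3), by 0.41 on the log2 scale (adjusted p = 0.0246). PHB2, a prohibitin that scaffolds the inner membrane proteases, fell from 150 ± 20.2 to 111 ± 7.59 CPM, by 0.43 (adjusted p = 0.0320). NLN, a peptidase, fell by 0.39 (adjusted p = 0.0336). STOML2, MIPEP and XPNPEP3 had the smallest p of the uncalled, with log2 changes of -0.21, -0.43 and 0.20 (adjusted p = 0.0580, 0.0710 and 0.127), and the first pair were lower with the block (0.0147 and 0.0143).

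Of 15 tested genes that carry or guard precursors in the cytosol, 1 fell and 1 rose, with a median of 0.08. Under the block 2 were lower and 5 higher, against 13.2 and 11.1% of all genes. DNAJA1, a co-chaperone of HSP70, rose from 386 ± 42.5 to 509 ± 30.2 CPM, by 0.40 (adjusted p = 0.0320). UBQLN4, a ubiquilin, fell from 150 ± 14.3 to 112 ± 12.6 CPM, by 0.43 (adjusted p = 0.0320). DNAJA2, UBQLN1 and MARCHF5 had log2 changes of 0.17, -0.17 and 0.15 (adjusted p = 0.0774, 0.147 and 0.152, or 0.0263, 0.0209 and 0.0481 under the block).

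Of 18 tested regulators of the mitochondrial stress response and of biogenesis, 0 were called by edgeR, and 3 had an unadjusted p under 0.05 (against 27.3% of all genes). Under the block 1 was lower and 1 higher, against 13.2 and 11.1% of all genes. PPARGC1A, a coactivator of mitochondrial biogenesis, was at 5.86, 6.60 and 6.30 CPM and then at 8.74, 8.12 and 9.01 CPM, with no overlap (log2 change 0.46, adjusted p = 0.0511, or 0.0217 under the block). DELE1, which signals mitochondrial stress to the kinase EIF2AK1, was at 41.9, 47.3 and 45.02 CPM and then at 33.6, 38.8 and 37.7 CPM (log2 change -0.29, adjusted p = 0.0603, or 0.00856 under the block). EIF2AK1 had a log2 change of 0.13 (adjusted p = 0.174). Of 26 symbols searched for protein-coding genes of the mitochondrial genome, 0 were in the deposited table, so these genes could not be analysed.

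In the mitochondrial ribosome, complex I and cytosolic chaperonin groups, too, most log2 changes were negative. The pathway lists above differed: 26.7% of the 15 genes that carry or guard precursors in the cytosol were negative. Over the 67 tested genes of all these lists together it was 47.8%. Negative log2 changes made up 73.0% of the members, 69.2% of 78 tested mitochondrial ribosome genes, 85.1% of 47 tested complex I genes and 75% of 8 cytosolic chaperonin genes, against 50.2% of all genes tested. Of the mitochondrial ribosome genes 8 were lower and 3 higher (16 and 5 under the replicate block), with a median log2 change of -0.08. Of the complex I genes 4 were lower and 0 higher (9 and 0 under the block), with a median of -0.06. Of the cytosolic chaperonin genes edgeR called 0, with 1 unadjusted p under 0.05, and 3 were lower under the block, with a median of -0.15. Over all genes tested 4.22% were lower and 2.73% higher, or 13.2 and 11.1% under the block. Differences between these groups and the members were not tested.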

How the data were processed

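Members and lists were chosen with earlier results of these data known. The tools named, per the submitters' processing notes, were RSEM 1.3.1 and Bowtie2 2.3.4.3, with GRCh38 as the genome and no roles stated. The release of the annotation was not given in the sources used here. Expected counts (15.2 to 16.0% of them not whole), FPKM values and TPM values were deposited by the authors. The authors' mean columns were not used, and 0 other columns of sample values were left over.

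After rounding, the counts were fitted with edgeR 4.0.16 under R 4.3.3 (filterByExpr, minimum count 10, minimum total 15, TMM factors of 0.978 to 1.025, robust quasi-likelihood fit, medium as the only term, Benjamini-Hochberg over 12548 genes, call at 0.05). The biological coefficient of variation common to all genes was 8.43%. CPM uses TMM-scaled library sizes, and mean ± SD is over 3 libraries. The edgeR step was tested on simulated data. It found 78 of 100 genes altered 1.5-fold and 99 of 100 altered 2-fold. Of its 192 calls, 15 fell on genes left unaltered. Every tested member changed by less than 1.5-fold, and no change that small was simulated. How often changes of the members' size are found was therefore not tested. Alternatives were DESeq2 1.42.0, limma 3.58.1 on log2 values with an offset of 1, other scalings, no filter and leaving out libraries. Ratios used an exact permutation test in SciPy 1.17.1.

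Replicates of a medium differed beyond sampling noise (a chi-square of 2.73 to 19.1 per gene), so none was treated as a copy. Both media carry the numbers 1 to 3, and the labels name no shared day or batch. Across genes, same-numbered libraries had correlated deviations from their group means (r of 0.326, 0.141 and 0.190). These values exceed 0.1, the minimum r used as a criterion for pairing. Other pairs ran from -0.282 to 0.163, and the highest, complete 3 with deprived 2, also exceeds that minimum and the 0.141 of the libraries numbered 2. Whether the numbers pair the libraries is therefore uncertain. Although same-numbered libraries met the criterion, the main fit and the ratio tests do not pair them and use no block. The block is an alternative fit, which called 14 members where the main fit called 5. The block is given beside results whose call or count it changes.

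Every member is named. Values of each library are given for members called with or without the block and for a fixed set of core genes; of the other pathway lists, called genes and up to 3 uncalled genes with the smallest p are named. The mitochondrial ribosome, complex I and cytosolic chaperonin groups are given by counts and medians. Shared sequence was counted as 100-base words of GENCODE transcripts. Whether counting used strand is not stated. Gene positions and promoters are from RefSeq on GRCh38.p14.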

Additional observations from a re-analysis of the deposited data

How the results depend on the processing

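The 5 called members were lower in all 15 alternatives, and each stayed called with DESeq2 size factors, library totals, limma voom, DESeq2, no filter on low counts, the replicate block, and without both libraries numbered 1. The number of members called was 5, and became 9 with no filter, 10 with DESeq2 (lower in each case), 2 by limma on log2(FPKM + 1), 1 on log2(TPM + 1), 14 with the replicate block (12 lower, 2 higher) and 22 without both libraries numbered 1 (19 lower, 3 higher). It ran from 0 to 11 with 1 library left out. TIMM13 alone of the 5 kept its call on FPKM and none did on TPM. The cause was not tested. Over all genes 872 became 340 on FPKM, 117 on TPM, 3044 with the block and 3643 without both libraries numbered 1, and 0 to 1737 with 1 library left out. The 7 called genes of the other pathway lists became 2, 1, 20 and 28 in those settings, and 0 to 15 with 1 library left out. The members' median log2 change of -0.12 was -0.0782 on FPKM, -0.0555 on TPM and -0.1593 without both libraries numbered 1. The median over all genes shifted as well, from -0.0007 to 0.0178 on FPKM, 0.0422 on TPM and 0.0017 without both libraries numbered 1. The replicate block changed no call of a member or list other than those given beside the results.

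Uncalled members near 0 changed sign. Log2 changes were 0.0221 by library totals, 0.0257 on FPKM and 0.0514 on TPM for PMPCB, and 0.0133, 0.0253 and 0.0509 for TOMM5. TIMM17B was at 0.01 on TPM. The median over all genes was itself 0.0252 by library totals, 0.0178 on FPKM and 0.0422 on TPM. Without both libraries numbered 1, TIMM10B was at -0.004, TIMM22 at -0.0221 and YME1L1 at -0.008. With 1 library left out, GRPEL1 ranged from -0.0183 to 0.0509, PMPCB from -0.0332 to 0.0468, TIMM10B from -0.0128 to 0.1053, TIMM22 from -0.0762 to 0.0693, TOMM5 from -0.0436 to 0.015 and TOMM7 from -0.0131 to 0.126. Log2 ratios then ranged from -0.1156 to 0.0243 for TIMM17A to TIMM17B, -0.2228 to 0.1458 for TOMM40 to TOMM40L and -0.0265 to 0.0368 for HSPD1 to HSPE1, the last also -0.0088 on TPM and -0.0087 on FPKM. With 3 libraries a medium, small differences cannot be resolved.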

Other observations

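TIMM50 had unlike values on the count and per-length scales. After this was seen, the gene length implied by the deposited values was computed as the count, scaled by the library's total, over the FPKM. That length was 2430, 2078 and 2137 bases in complete libraries 1 to 3 and 3200, 2698 and 3063 bases in the deprived libraries, with no overlap and a log2 difference of 0.43. Among 10916 tested genes with at least 1 FPKM in every library, 4 had a difference at least as high, TIMM50 included, and the median was -0.00. For comparison, the implied length of TOMM40 was 1344 ± 12.4 bases (SD, n = 3) in complete and 1343 ± 19.0 bases in deprived medium. RSEM sets a gene's length from the estimated shares of its isoforms, which are not analysed here, and no test was made.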
